A study of Drosophila melanogaster with 2 samples.

Results

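The peaks described here are places where the tagged transcription factor CG12605-eGFP was recovered just upstream of the start site of a single protein-coding gene. They were chosen by position alone: the summit of a peak in the conservative list lies 0 to 500 bp upstream of the nearest protein-coding start site, read along the strand of the gene, and no start site of any other protein-coding gene lies within 500 bp of the summit. The rule kept 1411 of 6776 peaks (20.8%). The peaks most like them are 731 whose summit lies 1 to 500 bp downstream of a single start site. A further 562 summits lie within 500 bp of the start sites of several genes, and 4072 lie farther than 500 bp from every start site. The study is a ChIP-seq experiment on whole Drosophila melanogaster pupae of the CG12605-GFP strain, aged 1 day, which carry a transgene for CG12605 fused to enhanced green fluorescent protein; the chromatin was immunoprecipitated with an anti-GFP antibody. There is 1 group of 2 biological replicates and no second condition. The labels do not give the promoter that drives the fusion, the number of animals pooled or their sex, and a whole animal has no single cell type whose markers could be checked. A control alignment entered the authors' peak calling and is not analysed here, so no level below can be set against untagged chromatin.

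CG12605 encodes a C2H2 zinc finger factor related to Snail and Scratch. Such factors bind E-boxes with the core letters CAGGTG and mostly act as repressors, many of them in the nervous system. Drosophila promoters fall into broad classes: those of developmentally regulated genes often carry a TATA box, an Initiator or runs of GAGAG bound by GAGA factor, while those of housekeeping genes more often carry DRE or Motif 1. Transcription factors commonly bind in the nucleosome-poor stretch just upstream of the start site, where GAGA factor is known to keep chromatin open.

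The sequences 50 bp on either side of the summit show 3 kinds of upstream summit that recur in the results below. The first set is 5 of the 6 strongest members, shown because their DNA is rich in A and T. They belong to Ugalt, which encodes a UDP-galactose transporter, Gapdh2, which encodes a glycolytic enzyme, and the less studied CG18549, CG14100 and CG4586. Each sequence reads 5′ to 3′ on the strand of the gene, with Release 6 (dm6) coordinates, and this set has no capitals because no motif was marked in it.
Ugalt, chrX:2703831-2703931, minus strand: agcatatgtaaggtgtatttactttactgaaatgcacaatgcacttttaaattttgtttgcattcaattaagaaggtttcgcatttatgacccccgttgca
CG18549, chr3R:12449124-12449224, plus strand: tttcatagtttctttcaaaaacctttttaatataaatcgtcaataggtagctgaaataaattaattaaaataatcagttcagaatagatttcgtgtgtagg
CG14100, chr3L:19590569-19590669, minus strand: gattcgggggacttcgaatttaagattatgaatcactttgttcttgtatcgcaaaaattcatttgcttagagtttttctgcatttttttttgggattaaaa
Gapdh2, chrX:15867933-15868033, plus strand: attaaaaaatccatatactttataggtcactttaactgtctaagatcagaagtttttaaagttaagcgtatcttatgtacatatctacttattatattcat
CG4586, chrX:6969432-6969532, plus strand: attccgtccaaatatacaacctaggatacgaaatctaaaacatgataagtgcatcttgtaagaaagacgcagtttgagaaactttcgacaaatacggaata

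The second set holds 3 or more GAGAG sites, counting overlapping sites and both strands, and the capitals mark them (CTCTC is the same site on the other strand). These 5 are among the strongest such members and were picked after the values were seen; the strongest, Dh44-R2, is described below without its sequence. The genes encode a BMP type II receptor (wit), a TBP-related core promoter factor (Trf2), a palmitoyltransferase of Fat signalling (app), a dipeptidyl peptidase (ome) and the RNA-binding protein Pumilio (pum).
wit, chr3L:4071847-4071947, minus strand: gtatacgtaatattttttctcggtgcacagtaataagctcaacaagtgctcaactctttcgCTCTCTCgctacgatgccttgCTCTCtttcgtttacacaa
Trf2, chrX:8421294-8421394, plus strand: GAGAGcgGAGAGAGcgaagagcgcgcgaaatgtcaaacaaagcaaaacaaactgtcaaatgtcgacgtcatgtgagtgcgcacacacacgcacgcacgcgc
app, chr3L:12265865-12265965, minus strand: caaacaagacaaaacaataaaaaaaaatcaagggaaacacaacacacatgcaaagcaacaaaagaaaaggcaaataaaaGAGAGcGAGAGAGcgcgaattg
ome, chr3L:14706540-14706640, plus strand: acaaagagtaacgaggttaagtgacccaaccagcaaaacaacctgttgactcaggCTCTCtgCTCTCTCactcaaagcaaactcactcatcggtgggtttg
pum, chr3R:9158176-9158276, minus strand: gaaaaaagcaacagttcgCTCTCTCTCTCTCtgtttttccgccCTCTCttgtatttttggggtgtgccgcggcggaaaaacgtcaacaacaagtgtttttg

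The third set is 6 of the strongest members that hold CAACAGGTG, the E-box preferred by Scratch proteins, with the site in capitals (CACCTGTTG on the other strand). Its genes include CNMaR, a neuropeptide receptor, Dop1R1, a dopamine receptor, Mct1, a monocarboxylate transporter, and Trmt6, a subunit of a tRNA methyltransferase.
CG12278, chr3R:21043712-21043812, plus strand: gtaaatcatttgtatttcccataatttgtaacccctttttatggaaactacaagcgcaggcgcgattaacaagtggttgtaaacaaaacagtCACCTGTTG
CNMaR, chr3L:9643901-9644001, plus strand: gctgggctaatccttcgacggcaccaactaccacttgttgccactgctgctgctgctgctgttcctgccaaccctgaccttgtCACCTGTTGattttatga
Dop1R1, chr3R:14214958-14215058, minus strand: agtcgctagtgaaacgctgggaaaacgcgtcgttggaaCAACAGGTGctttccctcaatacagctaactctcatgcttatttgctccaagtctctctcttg
Mct1, chrX:2188827-2188927, plus strand: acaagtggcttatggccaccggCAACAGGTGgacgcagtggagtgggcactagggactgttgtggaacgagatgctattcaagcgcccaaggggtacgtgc
CG13288, chr3L:5907203-5907303, plus strand: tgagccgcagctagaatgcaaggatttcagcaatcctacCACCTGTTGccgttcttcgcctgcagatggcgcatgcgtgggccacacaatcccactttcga
Trmt6, chr2L:6561637-6561737, minus strand: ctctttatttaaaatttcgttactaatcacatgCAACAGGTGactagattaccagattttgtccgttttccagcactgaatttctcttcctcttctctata

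The rule admits only distances of 0 to 500 bp for upstream summits, so their nearness to the gene was set in advance. Inside that range the upstream summits were unevenly spread, with more of them at the shorter distances. Their median distance was 141 bp (quartiles 73 and 224.5 bp), with 991 of 1411 (70.2%) within 200 bp and 217 (15.4%) farther than 300 bp. The number of summits fell off steeply beyond 200 bp, and 13 summits coincided with the start site itself. In replicate 1 the median distance was 138 bp and in replicate 2 it was 137 bp. Each was taken at the nearest summit of the replicate's own ranked list within 100 bp. This limit caps how far a replicate summit can lie from the member's, and the conservative list was itself derived from both replicates. The likeness of the replicates is thus partly set in advance. Where both replicates had such a summit, the median absolute difference between them was 22 bp and 90% of the differences were within 74 bp. Both replicate summits lay in the 0 to 500 bp range at 1169 of 1269 such members (92.1%). The difference was smaller at strong peaks, with a median of 12 bp at 198 members in the top decile of the list by signal and 31 bp at 487 members ranked in its lower part, below the median.

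Distance and signal were related, as a description across peaks of the same libraries (Spearman coefficient 0.182, 1411 members). The signal is the authors' peak signal value, of unknown scaling; it ranks peaks within a list. Summits 150 to 199 bp upstream had the highest median signal, 124.5 in the conservative list, with medians of 57.9 in replicate 1 and 71.3 in replicate 2. Summits 0 to 24 bp upstream had a median of 78.2 in the conservative list, with 36.0 in replicate 1 and 46.6 in replicate 2. Of the 238 summits at 150 to 199 bp, 66 (27.7%) were in the top decile of all peaks, against 5 of 132 (3.79%) at 0 to 24 bp. Both replicates had their highest median at 150 to 199 bp, and medians were lower on either side of that interval.

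**Figure D1:**
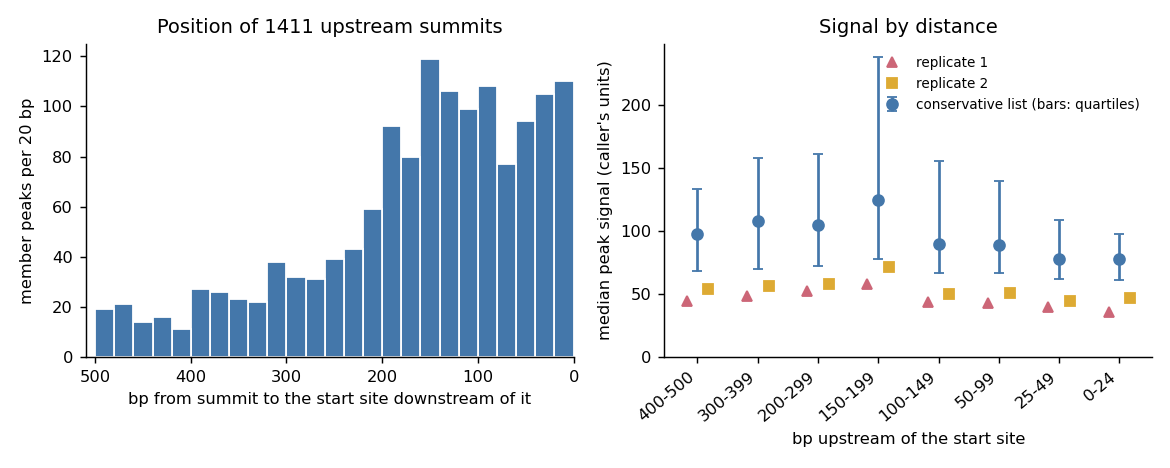
Left, the number of upstream summits per 20 bp against the distance in bp to the start site, with the gene to the right; right, the median peak signal by distance in the conservative list (bars are quartiles) and in replicates 1 and 2. Most summits sit within 200 bp, and the median signal is highest at 150 to 199 bp (124.5) in the conservative list and in both replicates.

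The upstream summits were stronger than the downstream ones. Their median signal was 92.8 (quartiles 67.7 and 148), against 76.0 (59.2 and 105) at downstream summits and 83.7 (62.3 and 125) at all other peaks of the list. In replicate 1 the medians were 45.0 at upstream and 37.2 at downstream summits, and in replicate 2 they were 52.6 at upstream and 43.0 at downstream summits. Upstream summits made up 33 of the 100 strongest peaks and 199 of the 678 in the top decile, so 14.1% of them were in the top decile, against 6.43% of downstream summits and 8.93% of all other peaks. Summits shared by several genes were close to the upstream ones, with a median signal of 89.3, 13.9% in the top decile and peaks of both replicates' thresholded lists at 50.2%, without a test. Replicate support was higher at upstream than at downstream summits, as the signal was. Peaks of both replicates' own thresholded lists overlapped 783 upstream members (55.5%, exact binomial 95% interval 52.9 to 58.1%) and 293 downstream peaks (40.1%, 36.5 to 43.7%). The difference of 15.4 percentage points had p = 1.39e-11 (Fisher's exact test, two-sided). Among members this overlap followed the signal, at 98.9% in the strongest quintile and 11.7% in the weakest. It is therefore not a result separate from the signal, and the sets were not compared at equal signal. Of the members, 134 overlapped a peak of replicate 1 alone, 250 a peak of replicate 2 alone and 244 (17.3%) neither. These intervals and tests treat peaks as independent, although 43 pairs of neighbouring members overlap.

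Across 1269 members with a summit in both ranked lists, the replicate signals had Spearman coefficient 0.773 and Pearson r 0.868 on the log2 scale. Both are descriptions over peaks. The conservative list was filtered by the irreproducible discovery rate, which keeps peaks that rank alike in both replicates. These coefficients are thus partly set by the filter. Replicate 2 had the higher value at 890 of the 1269 members (70.1%). The median log2 ratio of replicate 1 over replicate 2 was −0.25 with an SD of 0.46. The scaling of each list is not known, so this offset cannot be read as a difference in binding. A summit within 100 bp was found in replicate 1 alone at 48 members, in replicate 2 alone at 49 and in neither at 45. Several of those 45 lie beside a stronger member of the same gene: the weaker papi member, with a conservative signal of 30.7, lies in front of the same start site as one with 739.6.

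**Figure D2:**
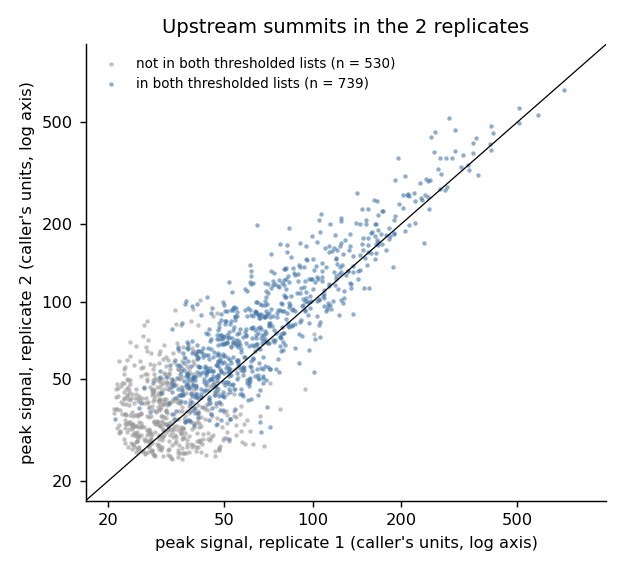
Peak signal of 1269 upstream summits in replicate 1 (horizontal) and replicate 2 (vertical), both log axes in the caller's units, with the line of equality; colours show whether thresholded peaks of both replicates overlap the member. Members in both thresholded lists lie toward the upper right, and 890 of the 1269 points lie above the line.

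The 25 strongest members belonged to genes of varied roles and shared a sequence composition. All 25 overlapped thresholded peaks of both replicates, their distances ran from 29 to 491 bp with a median of 161 bp, and 17 of them lay between 85 and 200 bp. The summit of Ugalt, 29 bp upstream at position 2703881 of X, had a signal of 1369, with 719 in replicate 1 and 666.5 in replicate 2. The summit of Gapdh2, 162 bp upstream, had 1002, with 506 and 497 in replicates 1 and 2. The summit of mRpL41, which encodes a subunit of the mitochondrial ribosome, had 894, with 407 and 484. These replicate values differ by far less than the gap to the median member (45.0 in replicate 1 and 52.6 in replicate 2).

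Others among the 25 were Btk, a Tec-family tyrosine kinase (807), GstT4, a glutathione transferase (774), Hsp27, a small heat shock protein (720.1), Lpin, a phosphatidate phosphatase (694), gish, a casein kinase I (692.5), ph-p, a Polycomb group protein (692), eIF6, a ribosome biogenesis factor (656) and Rtnl1, a reticulon of the endoplasmic reticulum (648.5). The remaining genes were CG18549, CG14100, CG4586, CG43658, CG1635, wech, Fkbp14, papi, CG12278, mtgo, CG10165, osp, CG1142 and Tina-1, with signals down to 622. Replicate 1 gave the higher value at 6 of the 25. None of the 25 held GAGAG within 50 bp of the summit, 13 held AAAAAA, and their mean GC content was 28.3 ± 6.51% (SD over the 25 peaks).

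GC content set strong and weak upstream summits apart. In the strongest quintile (signals from 173 to 1369) the sequence within 50 bp of the summit averaged 35.0 ± 11.4% GC (SD, 283 peaks), and in the weakest quintile (9.03 to 63.3) it averaged 44.1 ± 11.8% (282 peaks). The sequence 300 bp farther upstream of the same peaks averaged 39.6% in the strongest and 38.8% in the weakest quintile, so the summit was below its far flank in the strongest quintile and above it in the weakest. Spearman's coefficient between signal and GC content was −0.262, and between distance and GC content −0.410, both descriptions over 1411 members. Distance moved with both: the median was 164 bp in the strongest quintile and 118.5 bp in the weakest, and mean GC content was 37.6% at 150 to 199 bp and 49.7% at 0 to 24 bp. The part of distance in the relation of signal to GC content was not tested. The median peak width was 210 bp in the strongest quintile and exactly 360 bp in every other quintile and over the whole list. How the caller sets widths is not known, so this is not read as a trait of binding.

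Over all members the summit averaged 41.5 ± 12.6% GC and the sequence 300 bp farther upstream 38.3 ± 10.54% (SD, 1411 peaks). The difference of 3.15 points was positive at 793 members and negative at 592 (exact sign test, two-sided, p = 7.32e-08). From the thresholded list of replicate 1 alone, without replicate 2, the difference was 1.53 points (exact sign test, p = 0.273). Against the sequence 300 bp toward the gene, which averaged 44.8%, the summit was lower by 3.37 points (higher at 620 members and lower at 765, exact sign test p = 0.0001077). Along the profile, mean GC content was 41.9% at 120 bp on the far side, 40.3% at 30 bp on the far side and 40.9% at the summit. On the gene side it was 47.5% at 110 bp and 44.3% at 250 bp. Upstream summits thus sat near a shallow dip, with a rise toward the gene that did not continue. Downstream summits averaged 45.4 ± 9.59%, and summits shared by several genes 35.9 ± 12.04%.

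**Figure D3:**
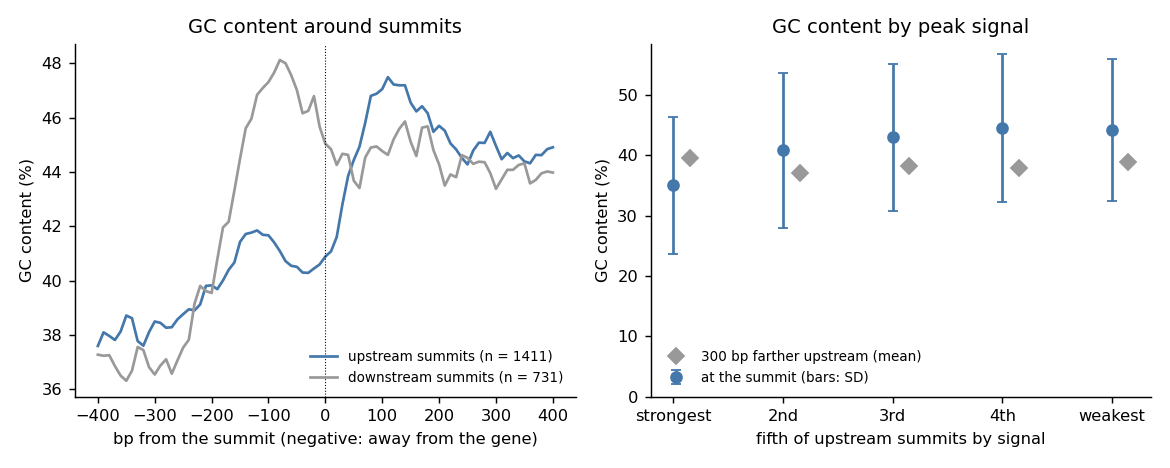
Left, mean GC content (%) against distance in bp from the summit, for 1411 upstream and 731 downstream summits, with the gene to the right; right, mean GC content at the summit (bars are SD) and 300 bp farther upstream by quintiles of signal. For upstream summits, mean GC content has a shallow dip near the summit and is higher on the gene side. The strongest quintile has the lowest mean at the summit (35.0%).

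GAGAG was the motif that marked the upstream summits most broadly. It was present within 50 bp of the summit at 408 of 1411 members (28.9%, exact binomial 95% interval 26.6 to 31.4%) and at 208 (14.7%) in the stretch of the same length 300 bp farther upstream. The log2 ratio of these counts was 0.97, with 348 members holding it at the summit alone and 148 in the far stretch alone (exact McNemar test, adjusted p = 2.97e-18). Of 23 motifs tested, 4 were higher at the summit (17.4%) and 3 were lower (13%), with Benjamini-Hochberg adjustment over the 23. Toward the gene GAGAG was present at 207 members, and the summit was again higher (exact adjusted p = 5.99e-18). It was also higher with either replicate left out, with log2 ratios of 1.12 without replicate 1 and 0.87 without replicate 2. At 8878 single-gene promoters with no peak summit within 1000 bp, a window placed 141 bp upstream held it in 12.9%.

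GAGAG was most frequent at 1 place relative to the gene. In 20-bp bins around the start sites of members it was most frequent 100 to 80 bp upstream, at 17.2% of members, against 4.22% in the same bin of the other single-gene promoters. The median over all bins was 4.57% at members' start sites and 2.50% at the others. Around the summits themselves the curve was broad, between 7.51% and 10.8% from 120 bp on the far side to 120 bp on the gene side. Members 50 to 99 bp upstream held it most often within 50 bp of the summit (41.2%), and those 200 to 299 bp upstream least often (18.6%). From 250 bp upstream to 50 bp downstream of a start site, 59.4% of member genes held GAGAG, against 30.1% of all genes. Member genes were read at the start site of their strongest member, which can be internal to the gene. All genes were read at 1 start site each, the one with the lowest coordinate, and promoters shared by several genes were kept. The shares thus differ in the kind of start site as well as in the genes.

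Median signal differed little between members with and without GAGAG, but a smaller share of those with it were among the strongest peaks. In the top decile of the list were 16.9% of members with no site. The shares were 8.70% with 1 site, 3.90% with 2 and 7.48% with 3 or more, without a test. Members with GAGAG had a median signal of 90.7, against 93.9 without it. The medians were 42.9 with and 46.8 without it in replicate 1, and 50.8 with and 53.3 without it in replicate 2. The strongest quintile of members held it least often (18.7%) and the middle quintile most often (36.5%). Members with 3 or more sites numbered 147 and had a median signal of 93.9. Their mean GC content was 50.9%, against 38.6% at the 1003 members with no site. Among the strongest holders were Syp, an RNA-binding protein (signal 509, with 212 and 262 in replicates 1 and 2), CG9815 (488, with 236 and 249) and Dh44-R2, a diuretic hormone receptor (381, with 147 and 229).

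**Figure D4:**
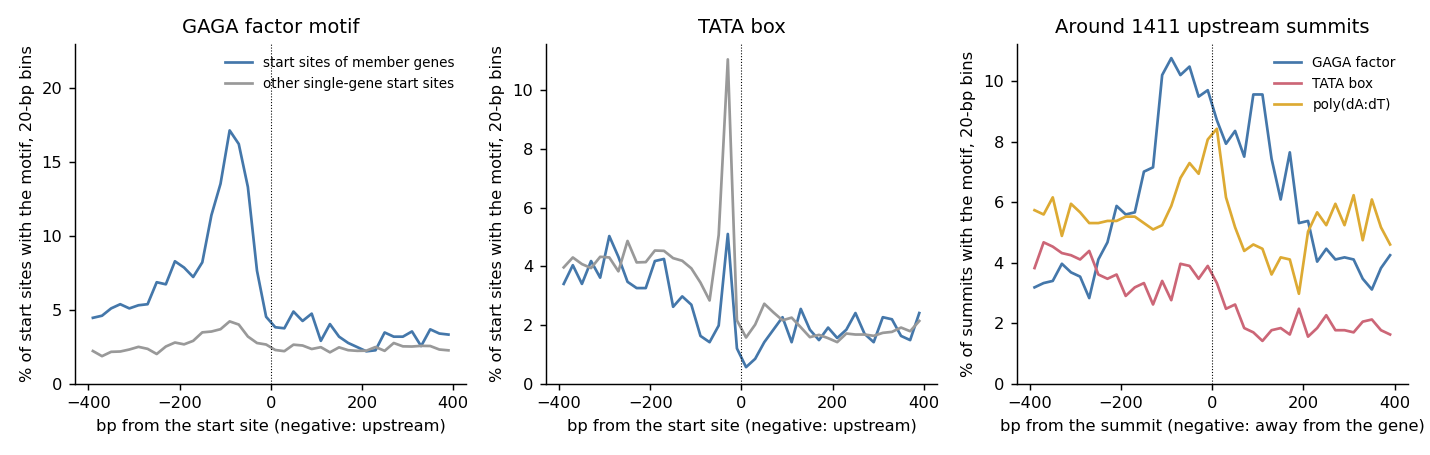
Share of start sites (left and middle) or summits (right) with a motif in each 20-bp bin, against distance in bp; start sites of members are set beside other single-gene start sites with no summit nearby. The GAGA factor motif peaks at 17.2% of members' start sites 100 to 80 bp upstream (4.22% at the others), and the TATA box 40 to 20 bp upstream reaches 5.10% at members' and 11.1% at the other start sites.

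The full Scratch E-box, CAACAGGTG, was rare but concentrated at the summits. It was present at 17 members (1.20%, exact binomial 95% interval 0.703 to 1.92%), against 3 in the stretch 300 bp farther upstream and 1 in the stretch toward the gene. The log2 ratio to the far stretch was 2.32 with adjusted p = 0.0148 (exact McNemar test), and it was 3.17 without replicate 1 and 3.06 without replicate 2, past the threshold in both. The peak-free single-gene promoters held it in 0.0901% of windows. In 7 of the 17 the centre of the site lay within 20 bp of the summit, and the median was 24 bp. Only sites within 50 bp of the summit were counted, so these distances do not show centring inside that window. The shorter core CAGGTG, which includes these sites, was at 53 members at the summit and 44 in the far stretch (exact adjusted p = 0.551).

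The 17 members with CAACAGGTG had signals from 61.6 to 725 with a median of 139.8, against 92.4 at members without it. In replicate 1 the medians were 49.9 with and 45.0 without the motif, and in replicate 2 they were 97.3 with and 52.3 without. Of the 17, 12 overlapped thresholded peaks of both replicates. Their mean GC content was 50.7 ± 10.1%, and 4 also held GAGAG. CG12278 was strongest, with 261 in replicate 1 and 459 in replicate 2. CNMaR had 121 and 159, Dop1R1 had 103 and 137, and Dh44-R1, a receptor of the same diuretic hormone as Dh44-R2, had 94.7 and 146.5.

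Below them came Mct1 (83.3 and 95.4 in replicates 1 and 2), CG13288 (66.0 and 98.2), Gp150, a leucine-rich repeat membrane protein (69.2 and 110.2), Trmt6 (78.0 and 99.03) and Ca-beta, a calcium channel subunit (36.8 and 98). RhoGAP16F had 49.8 and 72.9, and Glo1, a glyoxalase, had 41.5 and 88.4. Weaker members were Oseg4, a protein of intraflagellar transport (29.9 and 57.7), pwn (37.1 and 44.2), CG11034 (37.8 and 29.9), CG15082 (21.0 and 36.8) and DnaJ-H, a J-domain chaperone, with 27.7 in replicate 1 and no summit within 100 bp in replicate 2. Replicate 2 gave the higher value at every one of the 17 that both replicates measured except CG11034.

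The other calls rested on smaller differences. GCGCGC was at 44 members at the summit and 19 in the far stretch (log2 1.19, exact adjusted p = 0.0148), but at 45 in the stretch toward the gene. AAAAAA was at 375 and 319 members at the summit and in the far stretch (log2 0.23, exact adjusted p = 0.048). It lost this call in 6 of 12 alternatives, among them an upstream limit of 200 bp (log2 0.085, exact adjusted p = 0.563), gene 5′ ends alone (0.23, 0.23) and the other series-level list (0.21, 0.0619). Along the summits it was most frequent in the 20 bp next to the summit on the gene side, at 8.43% of members, where the median over bins was 5.35%. CAGGTAG, the site of the early embryonic factor Zelda, was lower at the summit, at 1 member against 15 (log2 −3.37, exact adjusted p = 0.00597); the single holder was nvy. CCAAT was also lower, at 204 against 262 (log2 −0.36, exact adjusted p = 0.0203), and so was TATAAA, at 192 against 245 (log2 −0.35, adjusted p = 0.0287). Without replicate 1, the calls of TATAAA (log2 −0.27, exact adjusted p = 0.179) and CAGGTAG (−1.77, 0.21) were lost. Without replicate 2, those of TATAAA (−0.19, 0.403), CAGGTAG (−2.12, 0.403), CCAAT (−0.13, 0.669) and GCGCGC (0.89, 0.249) were lost.

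For TATAAA the direction depended on the side. It was at 118 members in the stretch toward the gene, so the summit was higher than that side (log2 0.70, exact adjusted p = 0.0001531). Members with it at the summit had a median signal of 117, against 90.6 without it (55.7 against 43.8 in replicate 1, and 60.4 against 51.9 in replicate 2), and a mean GC content of 29.8%. At its usual place 40 to 20 bp upstream of the start site, it was at 5.10% of members' start sites and 11.1% of the other single-gene start sites. From 250 bp upstream to 50 bp downstream, 30.7% of member genes and 45.1% of all genes held it, at the unlike start sites described above for GAGAG. The DRE, TATCGATA, was in 2.90% of member genes' promoters and 8.73% of all genes' promoters, read in the same way. Within 50 bp of the summit it was at 15 members (1.06%). The windows at peak-free single-gene promoters held it in 0.71%, without a test. It was at 7 members in the far stretch (exact McNemar test, adjusted p = 0.204). In the stretch toward the gene it was at 1, and there the summit was higher (exact McNemar test, adjusted p = 0.00199).

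Upstream and downstream summits differed in 4 of the 23 motifs (two-sided Fisher's exact tests, p-values adjusted over the 23 by the Benjamini-Hochberg method). Upstream summits were higher for 3 (13%). GAGAG was at 28.9% of upstream and 20.8% of downstream summits (exact adjusted p = 0.000586), ATATAT at 9.43% and 4.38% (adjusted p = 0.000402), and TATAAA at 13.6% and 9.03% (adjusted p = 0.0155). GCGCGC was lower, the 1 such motif (4.35%), at 3.12% of upstream and 5.61% of downstream summits (exact adjusted p = 0.04). With replicate 2 left out, the log2 ratio of GAGAG was 0.28 with an exact adjusted p = 0.226 and that of GCGCGC −0.47 with adjusted p = 0.61; without replicate 1, that of GCGCGC was −0.71 with adjusted p = 0.207. The calls of ATATAT and TATAAA held with either replicate left out. Over 10 alternatives, ATATAT lost its call in 0, TATAAA in 3, GAGAG in 4 and GCGCGC in 9. TATAAA lost it in the stronger part of the list (exact adjusted p = 0.112), with no other gene within 1000 bp (0.0919) and with an upstream limit of 200 bp (0.166). The sets also differ in mean GC content at the summit (41.5% upstream, 45.4% downstream), and motifs were not compared at equal GC content. For CAACAGGTG the shares were 1.20% upstream and 0.958% downstream, and no difference was detected (exact adjusted p = 0.851).

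Of 18 motifs with a direction, 4 (22.2%) were unevenly placed on the strand of the gene and the other strand (exact binomial test, adjusted over the 18). TCAGTT, the Initiator, had 94 sites on the gene's strand and 44 on the other (exact adjusted p = 0.000451). It also passed the test with either replicate left out. GAGAG had 475 sites on the gene's strand and 563 on the other (exact adjusted p = 0.0414), and AAAAAA had 597 and 691 (adjusted p = 0.0429). With gene 5′ ends alone the share of GAGAG sites on the gene's strand minus 50% was 0.41 points (exact adjusted p = 1), against −4.24 points over all members, and its call was also lost in 2 of the other alternatives. AAAAAA lost its call in 4 of 10, among them the stronger part of the list (−0.999 points, exact adjusted p = 1). CACACA had 186 and 136 (exact adjusted p = 0.0414), and lost its call without replicate 1 (adjusted p = 0.385) and without replicate 2 (adjusted p = 0.419). Sites that overlap within a repeat were counted separately, so these p-values for the 3 repeats are too small. CAACAGGTG had 11 and 6 sites (exact adjusted p = 0.906).

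A scan of all 6-base sequences, each merged with its reverse complement, gave 102 that were higher at the summit than 300 bp farther upstream (4.9% of those tested) and 53 that were lower (2.55%), by the exact McNemar test with adjustment over all of them. AGAGCG led, at 232 members at the summit and 63 in the far stretch (exact adjusted p = 1.16e-21). GAGAGC followed at 243 and 75, AGAGAG at 275 and 100, GAGAGA at 213 and 80, AGCGAG at 153 and 55, and GAGCGC at 128 and 42. Of the 20 leading sequences, 11 hold GAGAG, the letters GAGCG or those of AGCGC on either strand. GAGCG and AGCGC are parts of GAGCGC, itself a leading sequence, so this count describes the list and is not a test. The leading lower ones were rich in A and T, with CAATTA at 87 members and 162, and AATTAT at 152 and 234. AATTAT was higher at the summit than on the gene side, where 100 members held it (exact adjusted p = 0.0124), and 6 of the 53 turned in this way. Only 26 were higher than both sides and 7 lower than both. Without replicate 1 the counts were 72 higher and 41 lower, and without replicate 2 they were 21 and 6.

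The upstream summits lay both between genes and inside them. Outside every protein-coding gene were 731 (51.8%), and 590 (41.8%) lay within the span of their own gene. Of these, 583 were upstream of an internal start site and 7 coincided with the 5′ end of the gene. A different protein-coding gene spanned 126 summits, of which 36 were also within their own gene and 90 were not, and 131 of all members were in an annotated exon. Summits between genes had a median signal of 95.6 (46.5 in replicate 1 and 53.5 in replicate 2), and those in their own gene 91.1 (43.9 and 52.2). GAGAG was at 26.7% of the summits between genes and 32.0% of those in their own gene, and thresholded peaks of both replicates overlapped 54.9% and 56.8%. Median distances were 138 and 143.5 bp. Summits between genes and in their own gene were thus close on these measures, without a test.

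The 1411 members belonged to 1208 genes, 8.66% of 13945 protein-coding genes and 11.6% of the 10426 with at least 1 single-gene start site (1207 member genes are among these). A single member was found at 1051 genes, 127 had a pair, and 30 had 3 or more, with a highest number of 5. Member genes were longer than the other genes with a single-gene start site and more often had 2 or more start sites. Their median length was 7.72 kb (quartiles 3.08 and 21.9 kb), against 2.05 kb (1.10 and 4.87 kb) for the others. The share with 2 or more start sites was 57.7% against 25.9%, and 511 of the 1208 member genes had 1 start site. The share of genes with a member was 4.99% with 1 start site, 12.8% with 2, 25.4% with 3 and 43.6% with 4 or more. Longer genes with more start sites offer more places for a member, and the shares of the gene lists below were not adjusted for this.

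Among 25 gene lists, the highest share was in the smallest, the Snail and Scratch families with 3 of 6 genes, and the next highest were in hormone-response, signalling and glycolysis genes. The ecdysone receptor and its early response genes, which drive metamorphosis, had members at 12 of 25 genes (48.0%, beside 8.66% of all genes); the median length of this list is 25.6 kb. Eip93F, a pupal transcription factor, had 191 in replicate 1 and 296 in replicate 2. The steroid receptor coactivator tai had 81.4 and 112, and the calcium-binding protein Eip63F-1 had 73.1 and 116. EcR, the ecdysone receptor itself, had 33.8 and 93.0, from a summit upstream of an internal start site that passed the threshold in replicate 2 alone. The others were Eip63E, Eip74EF, Eip75B, Hr38, Hr4, Hr78, ftz-f1 and Ldh, an ecdysone-inducible glycolytic enzyme that is also in the glycolysis list. The nuclear receptors had members at 6 of 21, all 6 of them also in the ecdysone list.

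The Hippo growth-control pathway had members at 7 of 15 genes (46.7%). They were Tgi, a repressive partner of Scalloped (232 in replicate 1 and 289 in replicate 2), ex, an upstream activator of the pathway (96.2 and 89.1), sd, the DNA-binding partner of Yorkie (65.3 and 43.3), dlg1, ft, fj and hpo. The EGF receptor and Ras pathway had members at 9 of 23 (39.1%), with the ligand spi (81.3 and 85.3), the ETS factor pnt (56.7 and 77.9), the phosphatase csw (66.3 and 45.2), the inhibitor kek1 (32.3 and 52.7), and with Egfr, aop, sty and vn among the others. The Notch pathway had members at 7 of 31 (22.6%), led by the corepressor gro (155 and 177.5), with the inhibitor numb (92.3 and 95.9), the receptor N (65.7 and 57.7) and the glycosyltransferase fng (49.4 and 62.7). Limb and Hox genes had members at 5 of 18 (27.8%), namely Dll (167 and 190.1), salr, dac, bi and salm.

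Glycolysis was the metabolic list with the highest share, at 6 of 16 genes (37.5%), all 6 overlapping thresholded peaks of both replicates and none with GAGAG. After Gapdh2 they were Eno (128 in replicate 1 and 109.9 in replicate 2), Ldh (105 and 81.2), Hex-A (54.5 and 85.1), Pgk and PyK. Heat shock proteins and chaperones had members at 7 of 38 (18.4%), with Hsp27 (307 and 386), Hsp26 (135.5 and 117), Hsp83 (116 and 157.5) and Hsp22 (77.5 and 73.0) in front. Glutathione transferases had 5 of 35 (14.3%), and Polycomb and trithorax group genes 5 of 23 (21.7%), among them ph-p (321 and 336), ph-d (60.97 and 139), Psc (68.6 and 97.1) and ash2 (57.2 and 54.4). Cell cycle regulators had 6 of 33 (18.2%), with Dp highest (115 and 97.4), and the antioxidant genes cnc and Keap1 were 2 of 19 (10.53%).

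Cytoplasmic ribosomal protein genes had members at 13 of 93 (14.0%), above the 8.66% of all genes, where the summit lay a median of 12 bp from the start site; RpL30 was highest (97.8 and 105 in replicates 1 and 2). Translation factors had 6 of 55 (10.9%). Several lists were under the share of all genes, with cytochrome P450s at 5 of 85 (5.88%), synaptic and ion channel genes at 2 of 38 (5.26%, elav and Sh), autophagy at 1 of 20 (Atg8a) and aminoacyl-tRNA synthetases at 1 of 33 (GluProRS). Chemosensory receptors and odorant binding proteins had 3 of 230 (1.30%), mitochondrial ribosomal proteins 1 of 73 (mRpL41), oxidative phosphorylation 1 of 91 (blw) and cuticle proteins 1 of 121 (Cpr51A). No proteasome subunit (0 of 48) and no DNA replication gene (0 of 31) had a member. Many genes of these lists share their start region with a neighbour: 19 of 73 mitochondrial ribosomal protein genes and 26 of 48 proteasome genes had a single-gene start site. Over such genes the shares were 22.03% for cytoplasmic ribosomal proteins and 5.26% for mitochondrial ones, beside 11.6% in all.

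**Figure D5:**
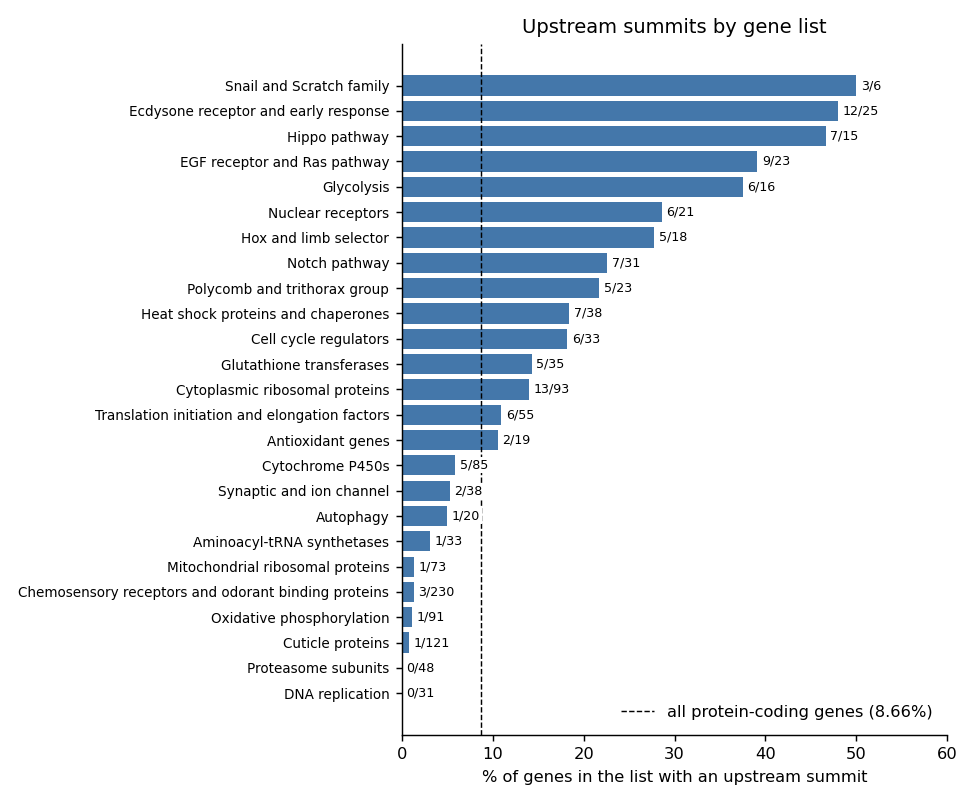
Percent of genes in each of 25 lists with at least 1 upstream summit (bars, with counts), beside the 8.66% of all protein-coding genes (dashed line). Signalling, hormone-response and glycolysis lists reach 22.6 to 48.0%, while proteasome and DNA replication genes have none.

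Of the 6 genes of the Snail and Scratch families, 3 had an upstream summit. Kah had 93.8 in replicate 1 and 114 in replicate 2. CG12605, the gene of the tagged factor, had 35.7 and 81.2 from a summit 156 bp upstream of an internal start site, which passed the threshold in replicate 2 alone. The stem cell factor esg had 30.1 and 32.8, overlapping a thresholded peak of replicate 1 alone. None of the 3 summits held CAACAGGTG.

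Genes with several members mostly used different start sites: of 157 such genes, 121 had members at 2 or more start sites and 36 at 1. Ptpmeg2, a tyrosine phosphatase, had 5 members with signals of 362.5, 349, 292, 226 and 80.6. Those at the higher end had 162.5 and 249.5, 159 and 187, and 154 and 139 in replicates 1 and 2. The transcription factor gene mamo had members of 544, 331, 231, 122 and 108 along the gene, the last of them beside the first and without a replicate summit within 100 bp. The phosphodiesterase dnc had 5 from 68.3 to 359. Rtnl1, Syp, PAN3, CG43658, Btk, papi and CG9815 were the other genes with the highest summed signal.

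The 500 bp limit cut through a continuous range of positions. Just inside it were brat at 499 bp (signal 143), vri at 498 bp (87.3), fkh and Cyp310a1 at 497 bp (62.0 and 60.7) and prtp at 495 bp (135.5). Just outside it were retn, Ypel and sd at 501 bp (35.0, 85.4 and 56.9) and CG10433 and lawc at 502 bp (72.6 and 185).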

How the data were processed

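Anti-GFP ChIP-seq of whole pupae was analysed from peak lists. Per the file headers and notes deposited with each sample, the authors worked on dm6, used a control alignment in peak calling and applied the irreproducible discovery rate; the aligner and caller are not named in those sources. The deposited signal column is the caller's value per peak. The depth is unknown, and its scale differs between lists, so levels are compared within a list. The replicates are labelled as biological.

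Summits were set against Ensembl BDGP6 start sites and the Release 6 genome with Python 3.11.15, pandas 2.3.3, numpy 2.4.6 and scipy 1.17.1. Motifs were searched on both strands within 50 bp of the summit and at 300 bp on either side, with a pseudocount of 0.5 in log2 ratios and a threshold of 0.05 after Benjamini-Hochberg adjustment. Exact McNemar, Fisher, binomial and sign tests were used. The McNemar and Fisher tests of motifs and the binomial test of strands were tried on simulated windows with known motifs, and the sign test was not. Alternatives changed the list, the replicate, the distance limits, the start sites, the flank and the window, 1 at a time.

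The genes named are those of the 25 strongest members, the 5 members nearest to either side of the 500 bp limit, up to 4 per gene list, the 3 strongest holders of each called motif, all holders of CAACAGGTG and the 10 genes with several members and the highest summed signal; other members of the lists are given by name. The members, lists and motifs were chosen with earlier results of these data known. Sequences come from the Release 6 genome. A few genes of these lists are not reported here.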

Additional observations from a re-analysis of the deposited data

How the results depend on the processing

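The higher share of GAGAG at the summit than in the far stretch kept its direction and its call in all 12 alternatives, with log2 ratios between 0.53 and 1.25; that of CAACAGGTG kept its direction in all 12 and its call in 9. The 15.4-point difference in replicate support kept its call under both other definitions of overlap. With replicates left out, the ranges were 139 to 150 bp for the median distance, 1.02 to 1.06 for the ratio of the members' median signal to that of the list (1.08 with all data), 1.53 to 3.27 points for the GC difference, 21 to 72 and 6 to 41 for 6-base sequences higher and lower, and 1 for motifs lower at the summit and 0 for motifs lower upstream than downstream in both cases. In the stronger part of the list, above its median signal, there were 796 members at a median of 157 bp, a GC difference of 0.929 points (exact sign test p = 0.802), 0 motifs lower at the summit, 1 higher and 0 lower upstream than downstream, 17 and 4 6-base sequences, and TATAAA reversed to a log2 ratio of 0.034. With gene 5′ ends alone there were 871 members, 1 motif higher and 0 lower at the summit, 2 lower upstream than downstream and 2 strand calls, and the strand excess reversed to 0.41 points for GAGAG and −2.76 points for CACACA. With an upstream limit of 200 bp the distance was 100 bp, the signal ratio 1.04, 5 motifs were lower at the summit, 0 were lower upstream than downstream and there was 1 strand call. With no other gene within 1000 bp, 1 motif was higher, 0 were lower upstream than downstream and 2 had strand calls. The other series-level list gave 0 motifs lower upstream than downstream. Against the flank toward the gene, 7 motifs were higher, 109 6-base sequences were lower, the GC difference reversed to −3.37, TATAAA to 0.70 and GCGCGC to −0.032. A flank 200 bp away gave 1 motif lower. Windows of 30 and 100 bp on either side gave 2 and 10 motifs higher at the summit, 0 and 2 lower upstream than downstream and 2 strand calls each. Over genes with a single-gene start site, 11.6% had a member. The cause of these changes was not tested. No paired analysis was possible because the 2 replicates form 1 group.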

Other observations

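Noncoding genes started within 500 bp of 76 upstream summits (5.39%), which the rule on other protein-coding genes does not remove. Of these, 62 were near a noncoding RNA gene, with a median signal of 94.4 (47.8 in replicate 1 and 57.2 in replicate 2), 7 near a tRNA gene (114, with 38.4 and 56.2), 4 near a snoRNA gene and 3 near a pseudogene. Summits near a tRNA gene belonged to ATP8A, CG30122, CG8036, CG8490, Sema1a and Spag1, and 6 of the 7 overlapped thresholded peaks of both replicates. Among the 25 strongest members, the summits of mRpL41 and eIF6 are each near a noncoding RNA gene. For all summits near a noncoding gene, the start site that the summit serves cannot be told apart by position.

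Among the 731 upstream summits outside genes, the next protein-coding gene upstream lay on the same strand for 453 and on the opposite strand for 278. Its median distance was 777 bp on the same strand and 3056 bp on the opposite strand, where nearer pairs are left out by the rule on other start sites. The median signal was 98.8 beside a gene on the same strand and 90.6 beside one on the opposite strand. By chromosome arm, the share of genes with a member ran from 7.78% on 3R to 9.60% on 3L, with 8.05% on 2L, 8.91% on 2R and 9.52% on X, and chromosome 4 had members at 2 of 80 genes.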
